A study of Mus musculus with 2 samples.

Results

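The cytosolic ribosomal protein genes were compared between colonies grown from mammary basal cells alone and colonies grown from such cells in wells shared with M2-like macrophages. They were taken by name: a gene belonged to the set when its symbol was Rpl, Rps, Rplp or Rpsa with the number and letters of a ribosomal protein and carried no pseudogene ending, which gave 88 of the 49492 genes in the count table. Of these, 52 belong to the large and 36 to the small ribosomal subunit. The set holds 77 canonical genes (46 large and 31 small subunit), 7 paralogs of canonical genes, several of which are known for their use in single tissues, and 4 rows (Rpl6l, Rps3a2, Rps3a3 and Rps12l1) that GENCODE M21 lists as processed pseudogenes. This last division was made after the annotation had been compared with the table. All 88 genes overlapped the GENCODE gene of the same name, and 73 had the same start and end.

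A ribosome is built from rRNA and from a single copy of most ribosomal proteins, so that cells make these proteins in matched amounts. The mRNAs of ribosomal proteins are among the most abundant of dividing cells, and nearly all begin with a C followed by a run of pyrimidines, the terminal oligopyrimidine (TOP) tract, through which mTORC1 and Larp1 control their translation. Control of this kind acts at least in part on how often an mRNA is translated, which sequencing of mRNA does not measure.

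Both groups held wild-type primary mammary basal cells, which had been sorted by FACS from adult female mice and grown in 3D for 11 to 14 days. In the ctrl group the cells received no treatment, and in the M2 group they shared wells with M2-like macrophages, which per the study's methods were grown from bone marrow, polarised with IL-4 and IL-13 and kept in a transwell chamber apart from the colonies. The RNA came from whole colonies and organoids, which per the study hold luminal cells as well as basal ones, so the libraries are mixtures and not basal cells alone. Each group is 1 library, so there are no replicates behind any value below. The series text speaks of a microarray, but the values are sequencing read counts.

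The ctrl library held 26912610 reads in genes and the M2 library 29413844, which is 9.29% more. Basal keratins were abundant in both libraries (Krt5 had 56383 and 83619 reads, Krt14 had 81991 and 68968), as was the luminal keratin Krt8 (29888 and 36348). Of 10 macrophage genes, Tyrobp, Fcer1g, Adgre1 and Ptprc had 0 reads in both libraries, 4 others had at most 5 reads, and the remaining Cd68 and Csf1r held 264 reads in ctrl and 257 in M2. Of 6 genes of dividing cells, 4 were called higher in M2 (Mki67, Top2a, Cdk1 and Ccnb1, median of the 6 log2 differences 1.22). Of the 8 basal genes 1 was called higher (Krt17, log2 difference 1.33) and 1 lower (Oxtr, -2.24). At least 25% higher were 2 of the 8 (25%, against 23.2% of all genes), and 4 were at least 20% lower (50%, against 28.6%). Among all genes tested, 7.77% were called higher in M2 and 7.15% lower. Of the 6 fibroblast genes 3 were called lower (Col1a1, Col1a2 and Col3a1) and 1 higher (Dcn). Of the 7 luminal genes 3 were called lower (Elf5, Esr1 and Prlr) and 0 higher. The part of these differences, or of a different share of basal and luminal cells, in the results below was not tested, and in bulk RNA fewer cells of a type cannot be told apart from less RNA per cell.

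To show the sequence feature that these genes are known for, the 30 bases around the start of transcription are given for the 3 most M2-high and the 3 most M2-low canonical genes with at least 200 reads and a RefSeq promoter entry (GRCm38.p6). The windows lie at chr7:4792950-4792979 (Rpl28, plus strand), chr10:128549154-128549183 (Rpl41, minus), chr11:114668565-114668594 (Rpl38, plus), chr5:65391417-65391446 (Rpl9, minus), chr14:24490663-24490692 (Rps24, plus) and chr4:152325711-152325740 (Rpl22, plus), each with 15 bases before the annotated start and 15 from it on, written 5′ to 3′ along the gene. Capitals mark each C that is followed by at least 5 pyrimidines, with its run up to the edge of the window.
Rpl28: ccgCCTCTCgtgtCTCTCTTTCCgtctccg
Rpl41: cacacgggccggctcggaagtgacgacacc
Rpl38: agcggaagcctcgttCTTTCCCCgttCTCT
Rpl9: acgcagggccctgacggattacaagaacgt
Rps24: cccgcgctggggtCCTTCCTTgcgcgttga
Rpl22: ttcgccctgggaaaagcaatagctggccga

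A run was found for Rpl28, Rpl38 and Rps24, and none for Rpl41, Rpl9 and Rpl22, so genes at both ends of the order of differences had one and lacked one. The RefSeq starts of these 6 genes lay 3 to 137 bases from the gene starts of the count table, and a run that begins at a start not annotated here would be missed. Of the 77 canonical genes, 57 had a RefSeq promoter entry. Of these, 36 (63.2%) held a C followed by 5 or more pyrimidines that began within 20 bases of the annotated start, on the strand that reads like the mRNA. Among 32776 promoters of other genes the share was 32.4%. CCGGAAG, the core letters bound by the factor GABP, was found on either strand of the 300-base promoter in 23 of the 57 (40.4%) against 8.80% of the other promoters, and AAGATGG, letters bound by YY1, in 8 (14.0%) against 6.32%. The median log2 difference between the libraries was 0.0027 for the 36 genes with the pyrimidine run and 0.03 for the 21 without.

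To ask whether co-culture with M2 changed these genes as a whole, their reads were compared after scaling by library size. In ctrl, 666161 reads fell in the 88 genes, 2.48% of the library (95% Wilson interval 2.47 to 2.48). In M2 there were 740234 reads, or 2.52% (2.51 to 2.52). The share was 1.67% larger in M2 in relative terms, a log2 difference of 0.024 (0.019 to 0.029). Intervals here and below cover counting error only. Mitochondrial transcripts made up 4.83% of ctrl and 4.11% of M2, and with these left out of the library total the log2 difference of the share was 0.013.

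Of the 88 genes, 85 had at least 10 reads summed over both libraries and were tested among 19233 genes. None of the 85 was called: 0 were at least 2-fold higher in M2 at an adjusted p under 0.05 in the exact binomial test, against 7.77% of the 19233 genes tested, and 0 were at least 2-fold lower, against 7.15%. The test compares these libraries and not the conditions. A level at least 25% higher in M2 was found for 2 genes, the paralogs Rps27l and Rps4l, against 23.2% of all genes, and a level at least 20% lower, which is the same fold downwards, for 0, against 28.6%. All 77 canonical genes lay within these limits when scaled by library totals. With edgeR's TMM factors in place of library totals, 7 of the 85 were at least 25% higher, and 4 of these were canonical. These factors raise every value (the median of all genes moved from -0.06 to -0.0032), so the 23.2% does not apply to that count.

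The log2 differences of the 85 genes had a median of 0.03 and a standard deviation across genes of 0.15, with an interquartile range of -0.05 to 0.12. Across all genes tested the median was -0.06 and the standard deviation 1.01. As deep counting narrows such a spread, the genes were also placed beside the 2169 other genes with a mean of at least 100 counts per 1000000 reads (CPM). These had a median of -0.03 and an interquartile range of -0.25 to 0.23, 62.4% of them were within the limits of 20% lower and 25% higher, and 85 were called higher and 72 lower. The canonical genes had an interquartile range of -0.05 to 0.12, and the ratio of the highest to the lowest of their M2 to ctrl ratios was 1.52-fold.

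**Figure D1:**
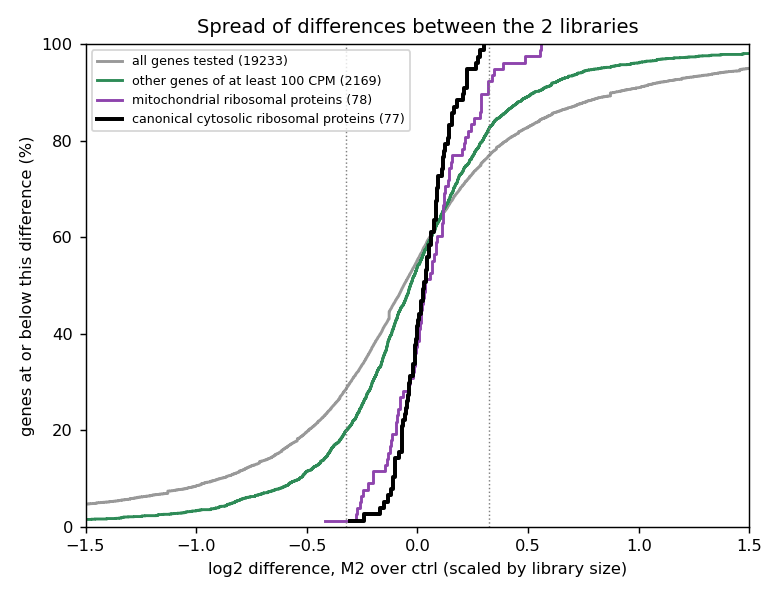
Cumulative share of genes (y axis, percent) at or below each log2 difference between the M2 and ctrl libraries (x axis, scaled by library size). The black curve of the 77 canonical cytosolic ribosomal protein genes runs wholly between the dotted lines at 20% lower and 25% higher, while 62.4% of the 2169 other genes of at least 100 CPM and 48.2% of all 19233 genes tested lie between them.

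The direction of these small differences was mixed. A log2 difference below 0 was found for 36 of the 85 genes (42.4%), against 55.2% of all genes tested, and for 21 of the 85 when TMM, RLE or upper-quartile factors were used. Such factors raise every value, so the 55.2% does not apply to the 21. Since the canonical genes have 911 to 43227 reads in ctrl, counting resolved differences well under 25%. The 95% interval lay above 0 for 35 of the 85 genes (41.2%), against 24.9% of all genes tested, and below 0 for 21 (24.7%), against 32.7%, and it included 0 for the other 29. Deep counting narrows these intervals. Among the 2169 other genes of at least 100 CPM, 40.6% had an interval above 0 and 47.3% below. Relative to the median of all genes, 64 of the 85 lay above and 21 below. Of the 2169 other genes of at least 100 CPM, 1167 lay above that median and 1002 below. The groups also differ in gene length, with a median of 1659 bases for the 85 and 5244 for the 2169. Longer genes tended to have lower differences, as given further on.

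**Figure D2:**
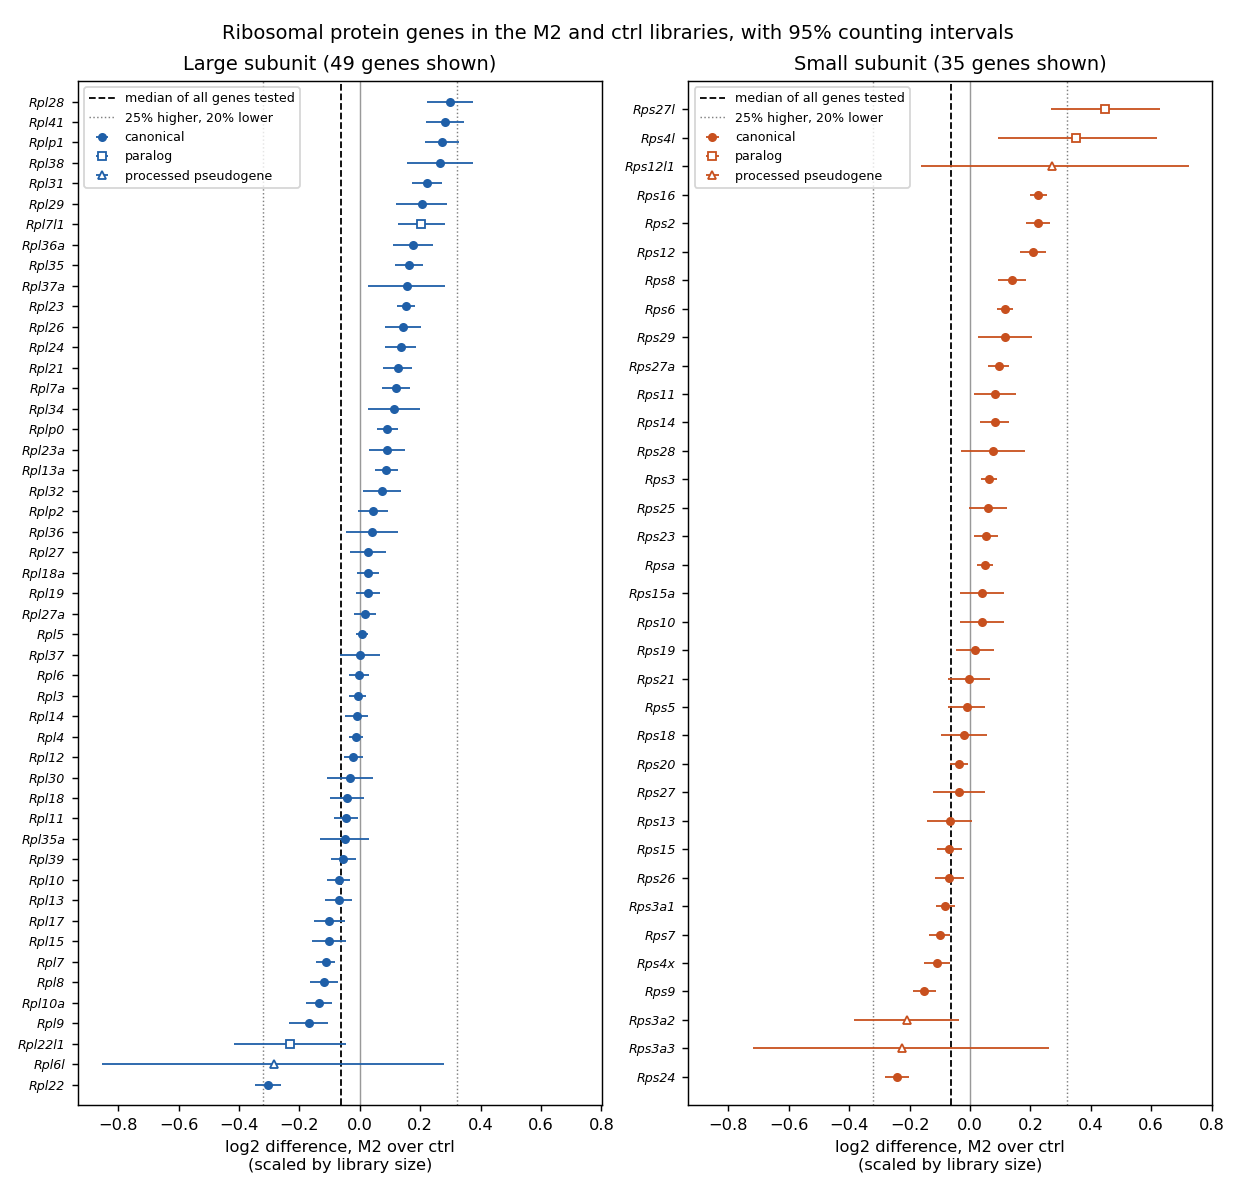
Log2 difference of tested genes, M2 over ctrl, scaled by library size (x axis), with bars for the 95% counting interval, for the large subunit (left, 49 genes) and the small subunit (right, 35 genes, with 1 tested gene not drawn). Filled circles are canonical genes, open squares paralogs and triangles processed pseudogenes. The values of canonical genes run from -0.30 (Rpl22) to 0.30 (Rpl28) on both sides of 0, and the dashed line marks the median of all genes, -0.06.

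Of the canonical genes, the highest M2 to ctrl ratios were found for 4 proteins of the large subunit and 2 of the small. Rpl28 (chromosome 7, 4792874 to 4795066, GRCm38 as for all positions given), which eukaryotic ribosomes carry and bacterial ribosomes lack, had 2455 ctrl and 3301 M2 reads and a log2 difference of 0.30 (95% interval 0.22 to 0.37). An exon of Rpl28 overlaps Ube2s, and the use of strand in counting is not stated, so some of its reads could belong to that gene. Rpl41 (chromosome 10, 128548114 to 128549305), a very short peptide at the contact between the subunits, had 3575 and 4755 reads and a difference of 0.28 (0.22 to 0.35). Rpl38 (chromosome 11, 114668524 to 114672331), which is known for its part in the translation of Hox mRNAs in mouse embryos, had 1192 and 1565 reads and a difference of 0.26 (0.15 to 0.37). The intervals of these genes and of the stalk protein Rplp1 overlapped, so their order was not resolved by counting.

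The 2 small subunit proteins came next by value. Their intervals overlapped those of the 4 genes above, so this order was not resolved by counting either. Rpl31, of the large subunit, had nearly the same value as Rps2 (0.22, 0.17 to 0.27). Rps16 (chromosome 7, 28350652 to 28353155), whose tail reaches the tRNA in the decoding centre, had 17395 and 22233 reads, a log2 difference of 0.23 (0.20 to 0.25). Rps2 (chromosome 17, 24718116 to 24721929), which lines the channel where mRNA enters, had 9487 and 12113 reads, a difference of 0.22 (0.19 to 0.26). Rps2 shares exon sequence with Snhg9 and Snora64, and its row is the one whose near-identical copies held the most reads, as given further on.

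At the other end stood Rpl22 (chromosome 4, 152325742 to 152334071), an RNA-binding protein of the large subunit that T cell development depends on. It had 9360 reads in ctrl and 8285 in M2, so that it had fewer reads in the larger library, and its log2 difference was -0.30 (-0.35 to -0.26). Rps24 (chromosome 14, 24490681 to 24496146), a small subunit protein that is mutated in Diamond-Blackfan anaemia, also had fewer reads in M2, 10962 against 10137, a difference of -0.24 (-0.28 to -0.20). The intervals of Rpl22 and Rps24 overlapped, and that of Rps24 also overlapped the interval of Rpl9.

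Rpl9 had 3943 and 3831 reads, a log2 difference of -0.17 (-0.23 to -0.11). Rps9, which like Rps2 sits at the mRNA entry channel, had 10813 and 10642 reads, a difference of -0.15 (-0.19 to -0.11). Rpl10a, the protein of the mobile stalk beside the exit site of tRNA, had 8953 and 8912 reads, a difference of -0.13 (-0.18 to -0.09). The processed pseudogene row Rps3a2 was at -0.21 (560 and 529 reads, -0.38 to -0.04), and its reads cannot be assigned with certainty, as it is a copy of Rps3a1. The other pseudogene rows, Rpl6l, Rps3a3 and Rps12l1, had 52 to 102 reads in a library, and their intervals included 0.

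Proteins that act as one structural unit did not share one value. Of the acidic stalk that recruits elongation factors, Rplp0 had 12292 and 14311 reads (log2 difference 0.09, 0.06 to 0.13), Rplp1 had 4475 and 5911 (0.27, 0.22 to 0.33) and Rplp2 had 6141 and 6913 (0.04, -0.0072 to 0.09). The interval of Rplp1 lay above those of its partners. Rpl5 and Rpl11, which bind the 5S rRNA and, when free, the p53 regulator Mdm2, stood near 0: Rpl5 had the most reads of the set (43227 and 47501, log2 difference 0.0078, -0.011 to 0.03) and Rpl11 had 10121 and 10714 (-0.05, -0.09 to -0.0067). Rps6, the substrate of the S6 kinases, had 21091 and 24994 reads (0.12, 0.09 to 0.14). Rpsa, also described as a laminin receptor precursor, had 21212 and 24005 (0.05, 0.02 to 0.08). The signs of Rpl5 and Rpl11 changed under other scalings, as they did for Rpl3, Rpl4, Rpl39 and Rps27.

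To compare the subunits, their reads were summed. The large subunit took 1.47% (ctrl) and 1.49% (M2) of the reads, and the small subunit 1.01% and 1.03%. The ratio of large to small subunit reads was 1.46 (ctrl) and 1.44 (M2), and its log2 change, -0.02 (-0.027 to -0.0076), does not depend on library scaling. When reads were divided by gene length before summing, the change was 0.011, so that its direction depended on the weight given to each gene. The medians of the log2 differences were 0.03 for the 49 tested large subunit genes and 0.04 for the 36 small subunit genes, with standard deviations across genes of 0.14 and 0.15. The difference of these medians was not tested. Among canonical genes the medians were 0.03 (n = 46) and 0.04 (n = 31). Of the large subunit genes 20 had an interval above 0 and 12 below, and of the small subunit genes 15 and 9. Leaving out genes whose exons overlap another gene gave a difference of medians of 0.03, of the opposite sign.

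Levels were compared between genes as CPM per kilobase of gene length. The 77 canonical genes spanned 34.2-fold in ctrl, with a median of 154 in ctrl and 163 in M2. The highest levels in ctrl were those of Rps3a1 (606 in ctrl and 573 in M2), Rps12 (603 and 697), Rps26 (565 and 538), Rpl4 (541 and 536) and Rps15 (539 and 514). All but Rpl4, which reaches into the exit tunnel of the large subunit, are small subunit proteins. The lowest canonical level was that of Rps15a (17.8 and 18.3), whose annotated exons add up to 6270 bases. The length used matters here: with the length of the principal GENCODE transcript, the 4 highest levels in ctrl belonged to Rps6 (893), Rpl5 (785), Rpl4 (706) and Rps15 (680), and the orders by both lengths had a Spearman correlation of 0.80 over 77 genes.

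The order of levels was nearly the same in both libraries. Over the 77 genes, the Pearson correlation of log2 levels in ctrl and M2 was 0.995, and no gene moved by more than 8 ranks. This describes 2 libraries that share gene lengths and annotation, and genes are not replicates. The log2 difference showed weak relations across these genes with gene length (Spearman correlation -0.23), with the principal transcript length (-0.21) and with mean CPM (-0.18). Among all genes tested, the median log2 difference was -0.01 in the shortest 25% of genes and -0.13 in the longest 25%.

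**Figure D3:**
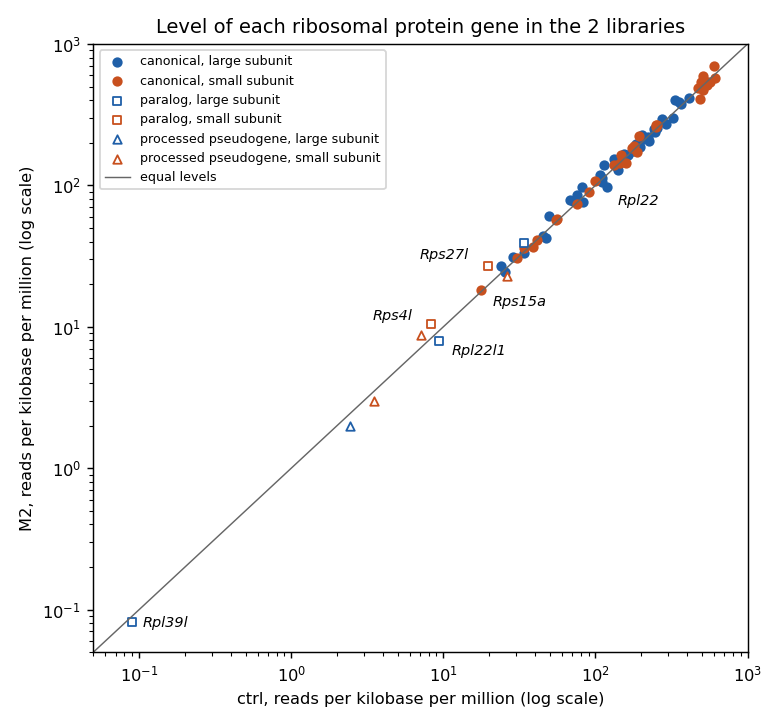
Level of each ribosomal protein gene in ctrl (x axis) and M2 (y axis), in CPM per kilobase on log scales, with the line of equal levels. Canonical genes run along the line from Rps15a (17.8 in ctrl) to Rps3a1 (606), paralogs (squares) and processed pseudogenes (triangles) lie at or below the lower part of that range, and Rpl3l and Rpl10l are not drawn because they had 0 reads in ctrl.

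The paralogs were set beside their parent genes, since some paralogs, though not all, can take the parent's place in the ribosome of a given tissue. Those of muscle and testis had at most 2 reads in a library. Rpl3l (chromosome 17, 24727820 to 24736143), which replaces Rpl3 in heart and skeletal muscle, had 0 reads in ctrl and 2 in M2, while Rpl3 had 18640 and 20276. Rpl39l (chromosome 16, 10170226 to 10174911), which is known from male germ cells, had 2 reads in each library, while Rpl39 had 9494 and 9993. Rpl10l (chromosome 12, 66283379 to 66284401), a testis copy of the X-linked Rpl10, had 0 reads in both, while Rpl10 had 10872 and 11322. These counts are under the 3 reads that a count of 0 allows (0.111 CPM in ctrl and 0.102 in M2), and a difference between the libraries was not detectable at this depth. The parents Rpl3 (-0.0068), Rpl39 (-0.05) and Rpl10 (-0.07) differed little on the log2 scale.

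Rpl22l1 (chromosome 3, 28805436 to 28807424), which the protein made from Rpl22 is known to hold down, was expressed in both libraries, with 500 reads in ctrl and 466 in M2. Its log2 difference was -0.23 (-0.41 to -0.04), in the same direction as that of Rpl22. Per length, Rpl22l1 stood at 7.82% of Rpl22 in ctrl (7.15 to 8.55) and 8.23% in M2 (7.50 to 9.04). The ratio changed by 0.07 on the log2 scale (-0.12 to 0.26), so a shift of at most 0.26 in favour of Rpl22l1, or 0.12 in favour of Rpl22, lies within counting error. With principal transcript lengths the levels in ctrl were 33.7 for Rpl22l1 and 170 for Rpl22, so that Rpl22l1 stood at 19.8% of Rpl22 in ctrl and 20.9% in M2. The choice of length leaves the change of the ratio as it is. Rpl22l1 overlaps an exon of Gm33051.

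The other 3 paralogs had higher M2 to ctrl ratios than their parents. Rps27l (chromosome 9, 66946086 to 66949516), a known p53 target, had 430 reads in ctrl and 641 in M2. Its log2 difference of 0.45 (0.27 to 0.63; adjusted p = 2.1e-06, exact binomial test) was the highest of the tested genes in the set, and its parent Rps27 had 2120 and 2259 reads (-0.04, -0.12 to 0.05). Per length, Rps27l made up 25.9% of Rps27 in ctrl (23.4 to 28.8) and 36.3% (33.2 to 39.6) in the M2 library, so that the ratio changed by 0.48 (0.29 to 0.68) on the log2 scale. With principal transcript lengths these percentages were 14.0% and 19.6%.

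Rpl7l1 (chromosome 17, 46773907 to 46782656), a relative of Rpl7, had 2386 and 3003 reads and a log2 difference of 0.20 (0.13 to 0.28), against -0.11 for Rpl7 (16191 and 16374 reads). It stood at 15.2% of Rpl7 per length in ctrl and 18.9% in M2, or 6.58% and 8.18% with principal transcript lengths, and the ratio changed by 0.32 on the log2 scale (0.23 to 0.40). Rps4l (chromosome 6, 148354656 to 148355598), an autosomal copy of the X-linked Rps4x that GENCODE lists as a transcribed processed pseudogene, had 209 and 292 reads and a difference of 0.35 (0.09 to 0.62). It made up 4.42% of Rps4x per length in ctrl and 6.10% in M2, or 2.64% and 3.64% with principal transcript lengths, a change of the ratio of 0.46 (0.20 to 0.73). For Rps27l, Rpl7l1 and Rps4l the interval of the change excluded 0, and for Rpl22l1 it did not. Reads of a paralog that matches its parent closely can be counted for either gene.

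**Figure D4:**
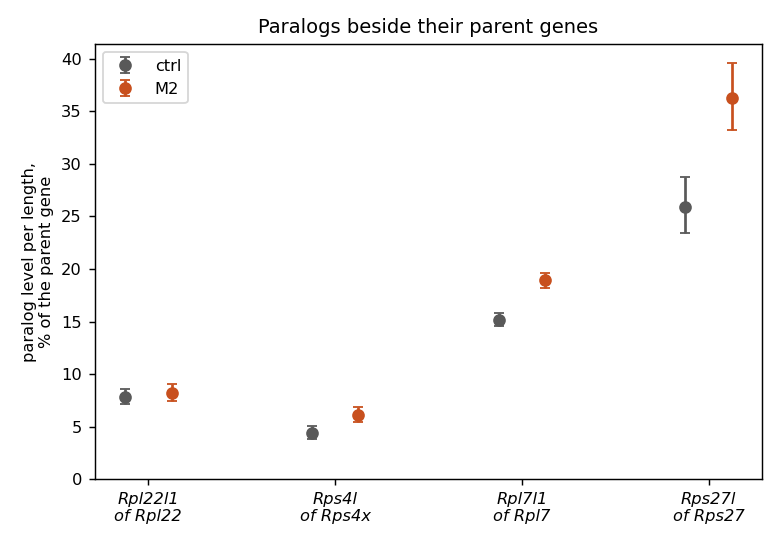
Level of each paralog per length (exon length of the count table) as a percentage of its parent gene (y axis) in the ctrl (grey) and M2 (orange) libraries, with bars for intervals derived from 95% Wilson limits of the reads. The ctrl and M2 bars are apart for Rps4l, Rpl7l1 and Rps27l (25.9% and 36.3%) and overlap for Rpl22l1 (7.82% and 8.23%).

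The name rule passes over several genes whose products belong to the ribosome. Fau, which encodes a ubiquitin-like protein fused to a small subunit protein, had 2479 and 3161 reads (log2 difference 0.22, 0.15 to 0.30). Rpl36al, an intronless copy of Rpl36a, had 1268 and 1671 (0.27, 0.16 to 0.38). Rack1, the signalling scaffold on the small subunit, had 25951 and 28340 (-0.0012, -0.026 to 0.02), Rps27rt had 385 and 387 (-0.12, -0.33 to 0.09) and Rpl37rt had 457 and 517 (0.05, -0.13 to 0.23). None of these genes was called or passed the limits of 20% lower and 25% higher. Among all genes tested, 7.77% were called higher and 7.15% lower, 23.2% were at least 25% higher and 28.6% at least 20% lower.

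Ribosomal protein genes have many processed copies in the mouse genome, and reads that fit a copy as well as the parent can land on either. The table holds 276 rows named as such copies, of which 171 had a read. Together they took 27040 reads in ctrl and 30824 in M2, 0.100% of ctrl and 0.105% of M2, with a log2 difference of 0.06 (0.04 to 0.08). Of the 90 copies with enough reads to be tested, 0 were called higher and 1 lower, against 7.77% and 7.15% of all genes tested. Many copies had few reads, and the interval included 0 for 72 of the 90. Rps2-ps10 alone had 7958 and 10034 reads (log2 difference 0.21), beside the 9487 and 12113 reads of Rps2 (0.22). Next came Rpl3-ps1 (2406 and 2500) and Rpl14-ps1 (2080 and 2385). For 12 canonical genes the copies held at least 10% of the gene's own number of reads. Without these genes the median of the canonical genes was 0.04 (n = 65) in place of 0.03.

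Over the 31 canonical genes whose copies held at least 100 reads, 22 had the same sign as the sum of their copies, and the log2 differences of gene and copies had a Pearson correlation of 0.61 and a Spearman correlation of 0.60. Genes and copies share the same libraries and can share reads, and so these points are not independent. Besides the copies, exons of 35 canonical genes overlap another gene, often a small nucleolar RNA, and the other 42 canonical genes had a median of 0.0086.

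To place the set among genes that work with it, 4 further groups were compared. The counts of genes called in each stand beside 7.77% of all genes tested called higher and 7.15% called lower. TOP mRNAs of 20 other genes took 1.62% of ctrl and 1.72% of M2 and had a median log2 difference of -0.00094. These genes are mainly translation factors but include others such as Npm1, Hnrnpa1 and Nap1l1, and 10 lay above 0 and 10 below. None of them was called, and 3 were at least 25% higher (15%, against 23.2% of all genes). Npm1, the nucleolar chaperone that escorts ribosomal proteins, had 29800 and 53794 reads (0.72, 0.70 to 0.74). Hnrnpa1, an RNA-binding splicing regulator, had 44649 and 63439 (0.38, 0.36 to 0.40), and Pabpc1, the poly(A)-binding protein, 30022 and 42251 (0.36, 0.34 to 0.39). The histone chaperone gene Nap1l1 was at 0.22 (15698 and 20044 reads). All 77 canonical ribosomal protein genes were closer to 0 than the values of Npm1, Hnrnpa1 and Pabpc1.

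Of the 24 genes of ribosome assembly and rRNA synthesis, 0 were called, 5 were at least 25% higher and 2 at least 20% lower (20.8% and 8.33%, against 23.2% and 28.6% of all genes), with a median of 0.10. Ncl, the nucleolin gene, had 67791 and 115462 reads (0.64, 0.63 to 0.65), and Nob1, the nuclease that completes the rRNA of the small subunit, 294 and 450 (0.48, 0.27 to 0.70). Nop58, a protein of box C/D particles that modify rRNA, had 2565 and 3717 (0.41, 0.33 to 0.48). Polr1b, a subunit of RNA polymerase I, had 461 and 354 (-0.51, -0.71 to -0.31).

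The 16 genes of mTORC1 control of translation had a median of -0.00032, with 0 called, 3 at least 25% higher and 4 at least 20% lower (18.8% and 25%, against 23.2% and 28.6% of all genes). Ddit4, an inhibitor of mTORC1 that stress induces, had 1282 and 2391 reads (0.77, 0.67 to 0.87). The translation repressors went both ways: Eif4ebp1 had 1165 and 1836 reads (0.53, 0.42 to 0.63) and Eif4ebp2 had 1839 and 1308 (-0.62, -0.72 to -0.52). Tsc2, which restrains mTORC1, had 1807 and 1394 (-0.50, -0.60 to -0.40). RNA counts do not measure the activity of this pathway.

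The mitochondrial ribosomal proteins, which are encoded in the nucleus and build a separate ribosome, offer a set of similar design but far fewer reads per gene (78 to 2542 reads in ctrl). Their 78 genes had a median of 0.04, a standard deviation of 0.19 and a range of -0.42 to 0.56, and 91.0% were within the same limits. None was called, against 7.77% of all genes tested called higher and 7.15% lower. The large subunit genes (Mrpl, n = 49) had a median of 0.06 and the small subunit genes (Mrps, n = 29) of 0.02. With fewer reads the counting error is wider, and the interval included 0 for 54 of the 78 against 26 of the 77 canonical cytosolic genes.

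**Figure D5:**
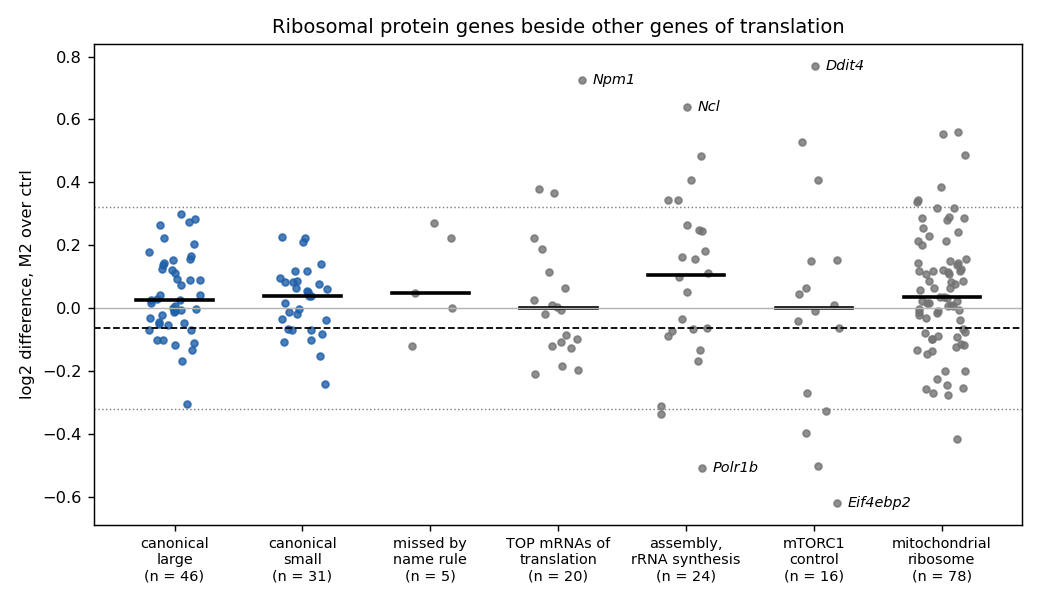
Log2 difference between the M2 and ctrl libraries (y axis, scaled by library totals) for the canonical large and small subunit genes (blue) and for 5 other gene groups (grey), with 1 point per gene and a black bar at each median. The dashed line is the median of all genes tested (-0.06) and the dotted lines mark 20% lower and 25% higher; no canonical point lies beyond them, whereas Npm1 (0.72), Ncl (0.64), Ddit4 (0.77), Polr1b (-0.51) and Eif4ebp2 (-0.62) do.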

How the data were processed

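RNA of 1 ctrl and 1 M2 library was analysed, grouped by the treatment given in the sample labels. The values deposited by the authors are unnormalized read counts for each gene. The submitters' processing notes name GRCm38 and mm10. The aligner, the counting tool, strand use and read filters are not given in the sources used here, and the labels and the methods name different RNA extraction reagents. No molecular identifiers are stated. Coordinates are GRCm38, as in the table. Of the gene names, 26 appear as dates, and none of them was a member.

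Genes with at least 10 reads over both libraries (19233) were compared. A pseudocount of 1 was added to the reads, which were divided by the library total before the log2 difference was taken. A two-sided exact binomial test (scipy 1.17.1) with Benjamini-Hochberg adjustment over all genes tested was used, and a gene was called when its adjusted p was under 0.05 and the fold was 2 or more. With 1 library per group no dispersion can be estimated. Intervals are 95% Clopper-Pearson intervals for differences, Wilson intervals for shares and exact conditional intervals for ratios of genes, except that the ratio of the subunit sums has a normal approximation. A count of 0 allows up to 3 reads. Simulated data with counting error only were used to test the functions, so variation between replicate libraries was not part of that test. The changes put into those data were larger than any difference of a tested member. Alternatives were edgeR 4.0.16 (R 4.3.3) scaling factors and exactTest with an assumed coefficient of variation, other pseudocounts, filters and totals, removal of a trend with gene length, and, chosen after seeing the data, 3 narrower member sets, canonical members under each scaling and principal transcript lengths.

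The members and lists were chosen with earlier results of these data known. Named were the 6 highest and 6 lowest members other than paralogs with at least 200 reads in one library, the 5 with the highest level per length in ctrl, the paralogs and their parents, the stalk proteins, Rpl5, Rpl11, Rps6, Rpsa, genes that the name rule misses, and up to 4 genes of each other list with the largest differences. Rps15a, Rpl31 and the pseudogene copies were named after their values were seen. Protein sequences were not used here, and the values of some single genes are not reported here.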

Additional observations from a re-analysis of the deposited data

How the results depend on the processing

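The largest difference of a tested member, 0.45 on the log2 scale, was well under the 2-fold that a call needs, so that the count of 0 members called says nothing about stability. With edgeR's exactTest for coefficients of variation set to 0.2 or 0.4, 888 and 753, and 169 and 134, of all genes were called higher and lower, against 1495 and 1375. Requiring at least 1 CPM in both libraries left 755 and 643. Scaling moved the smaller differences: with TMM, RLE or upper-quartile factors 7 members were at least 25% higher, 21 had a negative value, and the median was 0.087, 0.090 or 0.090, because these factors raise every value by one amount (the median of all genes moved from -0.06 to -0.0032 with TMM). The sign then changed, in that order of factors, for Rpl3 (0.0522, 0.0552, 0.0556), Rps27 (0.0224, 0.0254, 0.0259), Rpl11 (0.013, 0.016, 0.016), Rpl4 (0.0460, 0.0491, 0.0495) and Rpl39 (0.0047, 0.0078, 0.0082). Rpl5 changed sign to -0.0030 without mitochondrial genes in the total and to -0.0032 with the length trend removed. With that trend removed, 1 member was at least 25% higher and 2 at least 20% lower, and the cause was not tested. The shares of all genes past these limits were not counted under the alternatives. Of 330 values of 33 named members under 10 alternatives, 313 kept their sign and 17 changed it, in 6 genes. Among canonical members only, 0 were at least 25% higher with library totals, and 4 with TMM, RLE or upper-quartile factors. Without members whose exons overlap another gene, which leaves 48, 23 were negative and the large minus small subunit median was 0.031. The share of reads differed by 0.013 without mitochondrial genes, and the large to small ratio changed by 0.011 when summed per kilobase.

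No paired analysis was possible because ctrl and M2 have 1 library apiece. No replicate was left out, and DESeq2, which needs replicates, was not run, for the same reason. Depth limits Rpl3l, Rpl10l and Rpl39l, which had at most 2 reads in a library. For the deeply counted canonical genes the missing replicates, and not depth, limit what the differences can show.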
